A study of Mus musculus with 16 samples.

Results

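The comparison described here sets gonadal fat of mice given a vector with lipocalin-2 (LCN2) against gonadal fat of mice given a vector with green fluorescent protein (GFP). Its 8 samples, 4 per vector, were all those labelled as gonadal fat among the 16 samples of the series, and the other 8 are subcutaneous fat of the same 2 groups. All mice were Lcn2-null females of the C57BL/6J background, so the controls lack the gene as well. They were injected at 8 weeks of age with an adeno-associated virus (AAV8) in which the adiponectin promoter, active in fat cells, drives LCN2 or GFP. The construct carries a target site of the liver microRNA miR-122 against expression in liver. A diet named HF/HS followed until 16 weeks of age. By its design the construct supplies LCN2 from fat cells to a host that is null for the gene in every cell type, and which cells expressed it was not measured. Values are read counts divided by 1 size factor per sample (normalized counts), from libraries of 35173260 to 42890102 reads. Nothing in the labels says that the samples came from separate animals, so p-values describe only the scatter among these libraries, which may be technical.

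LCN2 is a small secreted protein that binds bacterial iron-carrying siderophores and rises in inflammation and obesity. Fat cells, neutrophils and many epithelia make it, and megalin (Lrp2) and Slc22a17 are described as its receptors. Gonadal fat is a visceral depot of fat cells, stromal progenitors, vessels and immune cells, and it is covered by a mesothelium, the flat cell layer that lines the body cavity.

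The labelled tissue was checked first. Adipoq, the gene of the fat cell hormone adiponectin, lay between 92501 and 144729 normalized counts in the GFP samples and between 83890.0 and 123527 in the LCN2 samples, and its log2 fold change was -0.15 ± 0.22 (SE). Of the 15 fat cell markers 7 were above 0 and 8 below, with a median log2 fold change of -0.02, a sign that turned in 4 of 16 alternative settings. Libraries differed in other tissue. In LCN2 replicate 4 the 18 skeletal muscle markers summed to 2501 CPM (reads scaled to the library total), against 71.7 to 218 in the other 7 samples, and 52 genes, among them the muscle genes Myh4, Ttn, Myh1 and Atp2a1, were at least 8 times higher there than in any other library. By the median of the markers relative to their own means, on the log2 scale, GFP replicate 2 was next at 1.36, after 6.05 in LCN2 replicate 4. Hepatocyte genes were high in GFP replicate 1 and LCN2 replicates 1 and 2, at list medians of 1.67, 1.84 and 2.86, against -2.13 to -0.28 in the other 5 samples. Their summed level without Cyp2e1, a cytochrome P450 that had 740.2 to 5129 CPM in all samples and was left out after its values were seen, was 591, 65.6, 101 and 129 CPM in GFP replicates 1 to 4 and 671, 1551, 174 and 78.5 CPM in LCN2 replicates 1 to 4. Both patterns appeared in libraries of both vectors, but both lists leaned to LCN2. All 17 tested muscle markers had a log2 fold change above 0 (median 1.75), as did 16 of 18 hepatocyte markers (median 1.30). Of all tested genes 52.0% did. Values without these 2 and 3 libraries are given for some results below. In bulk tissue, fewer cells of a type and less RNA per cell cannot be told apart.

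**Figure D1:**
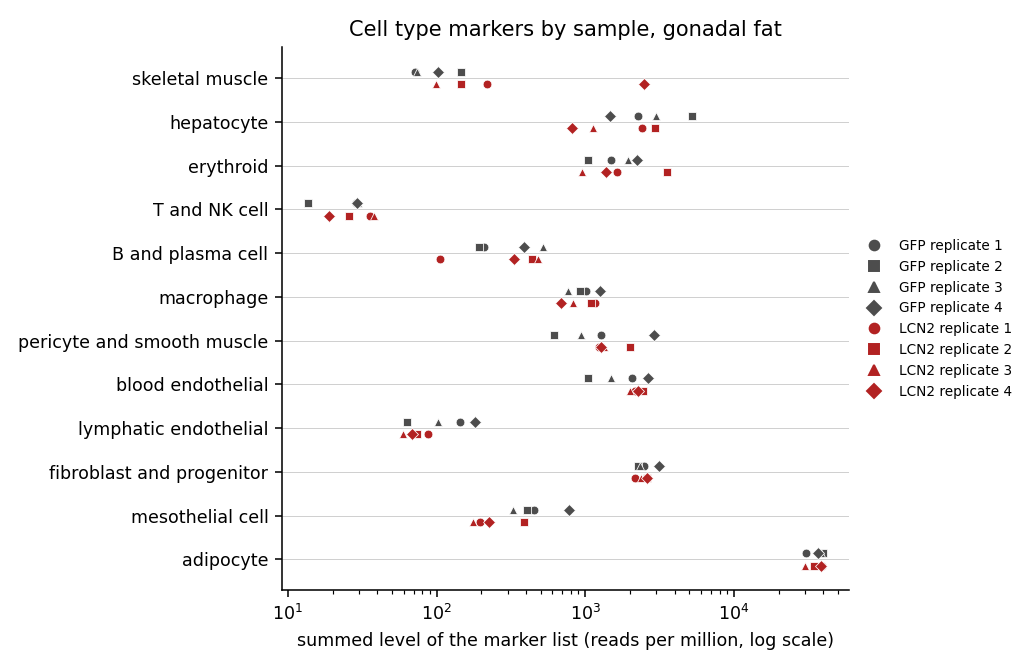
Summed level of 12 marker lists in each gonadal sample, in CPM on a log axis, with GFP samples in grey and LCN2 samples in red and 1 symbol per replicate number; the hepatocyte sum includes Cyp2e1. LCN2 replicate 4 stands at 2501 for skeletal muscle, and 3 LCN2 samples lie at 177 to 226 for mesothelial cells, below every GFP sample.

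Lcn2 itself, at chr2:32384633-32388252 on the minus strand (GRCm38, as all positions here), was higher in every LCN2 sample. Its normalized counts were 103, 62.1, 69.997 and 89.5 in GFP replicates 1 to 4 and 186, 189, 522 and 481 in LCN2 replicates 1 to 4. The groups did not overlap, and LCN2 replicates 3 and 4 stood above replicates 1 and 2. The log2 fold change was 1.93 ± 0.37 (SE), with a two-sided exact permutation p of 0.0286, the smallest possible with 4 against 4. Over all genes it did not pass (limma, adjusted p = 0.108). Which part of Lcn2 the null allele removes is not stated in the labels, so the reads in GFP samples are a background that counts per gene cannot resolve.

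Across all genes the vector was accompanied by small differences. Limma on log2 of the normalized count plus 1, with Benjamini-Hochberg adjustment, called 20 of 19536 tested genes (0.102%), 8 higher (0.041%) and 12 lower (0.0614%). The median log2 fold change of all tested genes was 0.01, their SD was 0.43, and 853 (4.37%) lay beyond 1 in either direction. Before adjustment 2895 genes (14.8%) had a p under 0.05, 1454 higher (7.44%) and 1441 lower (7.38%). With an adjusted p under 0.1 there were 75 genes, 43 higher and 32 lower, and under 0.2 there were 910, 498 higher and 412 lower. As the list lengthened the differences became smaller: the median size of the log2 fold change was 1.74 for the 20 genes, 1.43 for the 75 and 0.73 for the 910.

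The groups did not overlap at all for 1779 genes (9.11%), with all LCN2 samples higher for 859 (4.4%) and lower for 920 (4.71%). These 2 directions held different kinds of gene. Of the higher ones 89.2% were protein-coding, and of the lower ones 53.6% were, while processed pseudogenes (retrocopies of messenger RNA) made up 4.07% of the higher and 38.0% of the lower ones. Of all 19536 tested genes 14768 were protein-coding and 2474 were processed pseudogenes. Among the 14768 tested protein-coding genes 766 were higher without overlap (5.19%) and 493 lower (3.34%). Among the 2474 processed pseudogenes 35 were higher (1.41%) and 350 lower (14.1%).

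The largest share of variance between samples did not follow the vector. The first principal component held 31.3% of the variance, and the libraries high in hepatocyte genes scored highest on it (GFP replicate 1 at 19.7, LCN2 replicate 1 at 37.5 and LCN2 replicate 2 at 55.8). GFP replicates 2 and 3 and LCN2 replicate 4 were at -59.5, -33.5 and -26.0. The second, with 20.9%, separated the vectors: the GFP samples were at 28.0, 12.7, 6.67 and 45.3 and the LCN2 samples at 4.54, -13.6, -32.6 and -50.9. LCN2 replicate 1 was the sample nearest to the other group.

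**Figure D2:**
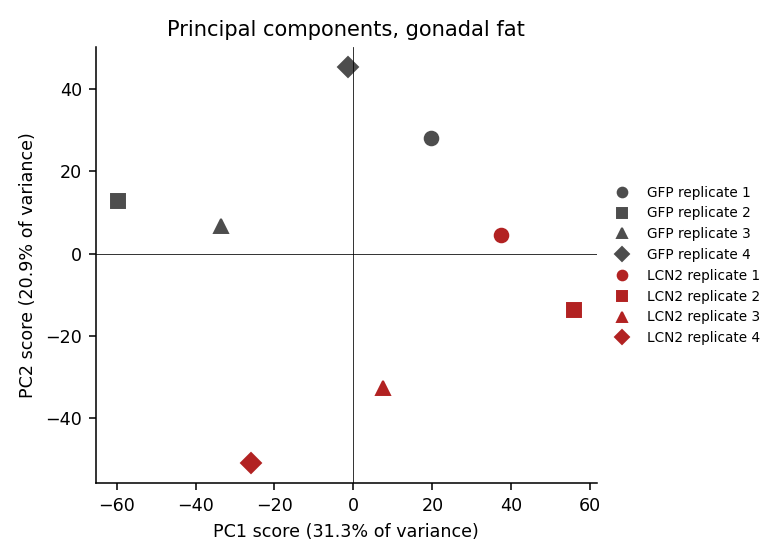
Scores of the 8 gonadal samples on the first and second principal components of log2 normalized counts, with GFP samples in grey and LCN2 samples in red. Along the vertical axis the 4 GFP samples lie between 6.67 and 45.3 and the 4 LCN2 samples between -50.9 and 4.54.

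Enzymes of acid-base balance and mineralization and an iron sensor were among the 8 genes that rose. Car12 (chr9:66713686-66766845), a membrane carbonic anhydrase, had 26.4, 17.3, 13.8 and 13.3 normalized counts with GFP and 112, 108, 99.8 and 151 with LCN2. Its lowest LCN2 value was 3.78 times its highest GFP value, the widest separation of the 8 genes that rose. The log2 fold change was 2.70 ± 0.25 (SE; limma, adjusted p = 0.0201). Tfr2 (chr5:137569840-137587481), a transferrin receptor that senses iron in hepatocytes and red cell precursors, had 127, 97.7, 125 and 78.7 with GFP and 487, 715, 647 and 319.9 with LCN2. Its LCN2 samples differed among themselves by more than its GFP samples did, with replicate 4 lowest, and the log2 fold change was 2.29 ± 0.26. Alpl (chr4:137741733-137796384), an alkaline phosphatase, had 247, 241, 272 and 223 against 392, 457, 501 and 507, a log2 fold change of 0.91 ± 0.11.

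Noct (chr3:51224447-51251644), the rhythmic NADP(H) phosphatase nocturnin, had 779.7, 851, 986 and 909.9 with GFP and 1974, 1709, 2328 and 1671 with LCN2, a log2 fold change of 1.11 ± 0.12. Gm38357 (chr3:51231917-51234380), which rose by 1.42 ± 0.15, lies inside Noct on the same strand and shares 0 exonic bases with it. Both calls therefore come from 1 locus, and whether they are separate transcripts was not tested. D430019H16Rik rose from 408, 213, 296 and 356 to 776, 1286, 958 and 1406. Mtss1l, an actin-binding protein gene, rose by 0.69 ± 0.09, the smallest change among the 20, and the olfactory receptor gene Olfr558 by 1.02 ± 0.14. In 4 of the 8 genes LCN2 replicate 4 was the highest LCN2 sample and in 4 LCN2 replicate 1 was the lowest.

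**Figure D3:**
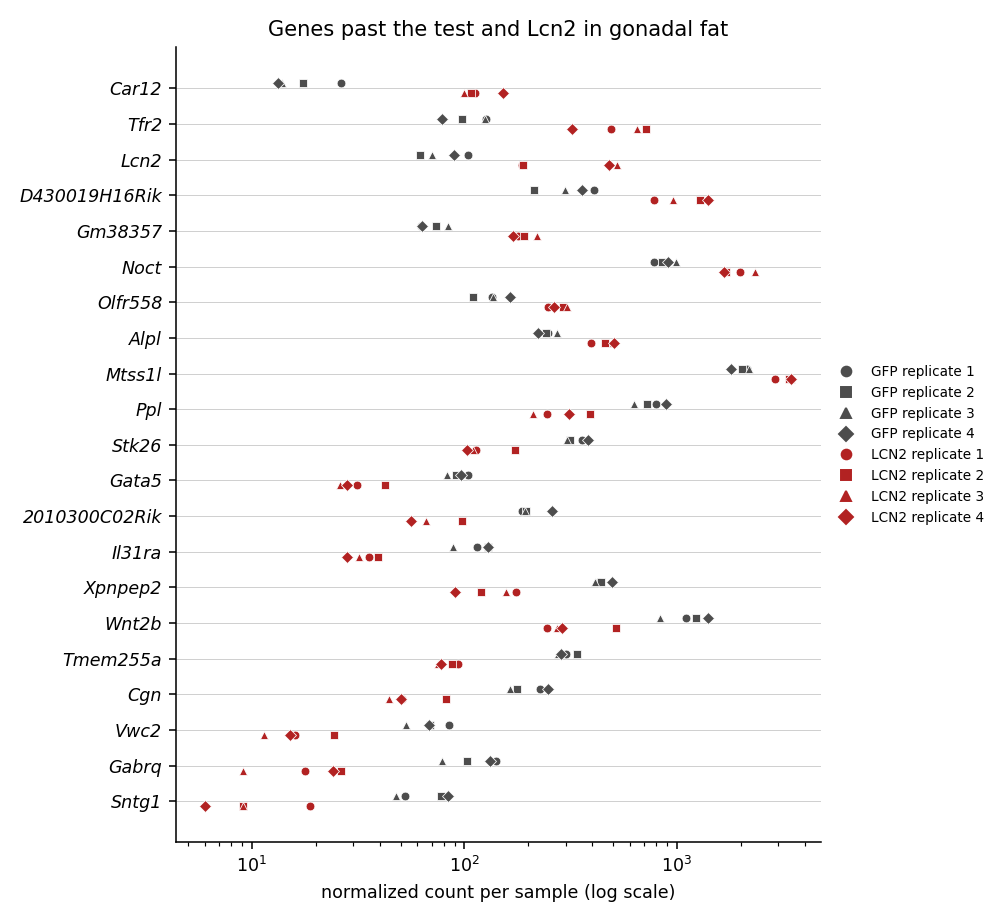
Normalized counts of the 20 genes past the test and of Lcn2 in each gonadal sample, on a log axis, ordered by log2 fold change, with GFP samples in grey and LCN2 samples in red. In each of the 21 rows the grey and red points do not overlap, and the gap is narrowest for Mtss1l.

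Epithelial junction genes, a Wnt ligand and a GATA transcription factor were among the 12 genes that fell. Tmem255a (chrX:38196573-38252439), a membrane protein gene, had the smallest p of all genes, with 301, 339, 277 and 285 normalized counts with GFP and 93.3, 87.7, 74.8 and 77.2 with LCN2. Both groups were tight, and the log2 fold change was -1.84 ± 0.12 (SE; limma, adjusted p = 0.00242). Zbtb33, which runs the other way, covers 10.6% of its exonic bases. Cgn (chr3:94760069-94786492), the gene of the tight junction protein cingulin, had 226, 177, 163 and 246 against 50.7, 81.7, 44.2 and 50.1, a log2 fold change of -1.84 ± 0.22. Wnt2b (chr3:104945272-104961921), a secreted Wnt ligand, had 1109, 1231, 834 and 1399 against 245, 517, 272 and 287, with a log2 fold change of -1.83 ± 0.25. LCN2 replicate 2 stood well above the other LCN2 samples here.

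Gata5 (chr2:180325133-180334699), a GATA transcription factor of heart and endoderm, had 104, 91.6, 82.7 and 96.1 with GFP and 31.1, 42.4, 26.1 and 28.1 with LCN2, and its antisense neighbour Gata5os shares 7.87% of its exonic bases. Il31ra, the receptor of interleukin-31, fell by 1.74 ± 0.18 on the log2 scale, the aminopeptidase gene Xpnpep2 by 1.75 ± 0.20 and the kinase gene Stk26 by 1.46 ± 0.17. Gabrq, a GABA receptor subunit gene, had 140.3, 103, 78.5 and 132 against 17.8, 26.2, 9.07 and 24.1, and its lowest GFP value was 2.99 times its highest LCN2 value. Sntg1, a syntrophin gene, and Vwc2, an antagonist of bone morphogenetic proteins, fell by 2.57 ± 0.35 and 2.01 ± 0.26 from GFP means of 65.4 and 68.6. Ppl, the gene of the desmosome-associated periplakin, fell by 1.41 ± 0.19, and 2010300C02Rik fell by 1.60 ± 0.20. Adjusted p-values of all 20 genes ran up to 0.0493 (limma).

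Mesothelial markers followed the same samples as these 12 genes. All 14 had a log2 fold change below 0, where 48.0% of all tested genes did, with a median of -1.23. They summed to 455, 405, 326 and 775 CPM in GFP replicates 1 to 4 and to 196, 385, 177 and 226 in LCN2 replicates 1 to 4, so the groups overlapped through LCN2 replicate 2. GFP replicate 3, the lowest GFP sample for these markers, was the lowest GFP sample in 11 of the 12 genes, and GFP replicate 4, the highest, was the highest in 7. LCN2 replicate 2, the highest LCN2 sample, was the highest in 9 of the 12. The part of the mesothelium in the fall of these genes was not tested. No marker passed the test and 6 were lower without overlap, against 4.71% of all tested genes. Bnc1, a zinc finger gene of mesothelium and keratinocytes, had 379.8, 301, 280.0 and 475 against 110.2, 168, 89.6 and 88.3, a difference of -1.66 ± 0.24 on the log2 scale (limma, adjusted p = 0.066). Wt1, the mesothelial transcription factor gene, had -1.27 ± 0.25 and Nkain4 -1.46 ± 0.29. Msln, the gene of the mesothelial surface protein mesothelin, overlapped between groups, with 781, 760.0, 579 and 1851 against 381, 1312, 340.1 and 406. Without the 3 libraries high in hepatocyte genes 13 of the 14 were lower without overlap, and the median was -1.64. Without LCN2 replicate 2 these values were 12 and -1.45, and without GFP replicate 3 they were 10 and -1.38. Over all tested genes the share without overlap, both directions counted, was 9.11% in the main setting. It was 26.4% without the 3 libraries high in hepatocyte genes and 10.9% to 17.9% without 1 library. Fewer samples make overlap rarer, the more so when the highest LCN2 or lowest GFP sample for these markers is left out. These counts are therefore no measure of stability. Without GFP replicate 4 the median was -1.03, with 13 of 14 below 0.

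Among cell junction and keratin genes beyond Cgn and Ppl, the claudin gene Cldn1 had the largest difference, with 151, 309, 159 and 334 against 34.7, 61.5, 48.8 and 61.2 and a log2 difference of -2.13 ± 0.31 (limma, adjusted p = 0.066). Of the 23 tested members 11 were above 0 and 12 below. Lrp2, described as a receptor of LCN2 and an endocytic receptor of many epithelia, had 517, 516, 345 and 847 against 116, 401, 108 and 160.5. Its groups overlapped, again through LCN2 replicate 2 and GFP replicate 3. The second described receptor gene, Slc22a17, had a log2 fold change of 0.05 ± 0.08, and this sign turned without LCN2 replicate 4 and GFP replicate 2.

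Ribosomal protein genes had lower values with LCN2 throughout, with no single gene past the test. The cytosolic ribosome translates messenger RNA, and its proteins are encoded by a large set of genes that are usually expressed in step. All 77 cytosolic ribosomal protein genes, taken by symbol after values had been seen, had a log2 fold change below 0, from -0.47 (Rps21) to -0.14 (Rplp0), with a median of -0.31. None passed the test, 72 had an unadjusted p under 0.05 (against 7.38% of all tested genes in this direction), and 54 (70.1%) were lower without overlap, against 4.71% of all tested genes. Rps3 had 8344, 9685, 8692 and 10767 normalized counts with GFP and 7904, 6757, 6830.1 and 7247 with LCN2. Its groups came close at GFP replicate 1 and LCN2 replicate 1, and the log2 fold change was -0.38 ± 0.11 (limma, adjusted p = 0.181). Rpl14 had 4774, 5578, 4913 and 5579 against 4282, 3734, 4115 and 4401, with -0.33 ± 0.09. Npm1, the nucleolar protein nucleophosmin that takes part in ribosome assembly and was chosen after its values were seen, had 4587, 5806, 4673 and 5974 against 3848, 3881, 3749.5 and 3555.

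The 77 genes together took 1.18%, 1.39%, 1.18% and 1.74% of reads in GFP replicates 1 to 4 and 1.14%, 1.03%, 1.00% and 1.17% in LCN2 replicates 1 to 4. The 2 groups did not overlap, but GFP replicates 1 and 3 and LCN2 replicates 1 and 4 were almost level, and GFP replicate 4 stood apart. All 34 cytosolic ribosomal proteins on the list used here were below 0 and 24 were lower without overlap. All 77 stayed below 0 under each of the 14 settings of scaling, filter and samples tried, and without GFP replicate 4 the median was -0.26. The count of 54 was 22 with library totals in place of size factors and 75 without GFP replicate 1 or without the 3 libraries high in hepatocyte genes. Over all tested genes the share without overlap, both directions counted, was 9.11% in the main setting and 6.04% with library totals. It was 13.1% without GFP replicate 1 and 26.4% without the libraries high in hepatocyte genes, since fewer samples make overlap rarer. The 77 mitochondrial ribosomal protein genes, by contrast, had a median of -0.04, with 56 below 0 and 0 lower without overlap. The 39 proteasome subunit genes had a median of -0.03 and 0 lower without overlap. A test of the difference between these families was not run.

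Processed pseudogenes named for a ribosomal protein gene had values like those of their parent genes, and reads may be shared between near-identical copies, so their values are uncertain. Of 198 tested 196 were below 0, with a median of -0.31, and 101 were lower without overlap (48.0% and 4.71% of all tested genes). The other 2276 processed pseudogenes had a median of -0.07, with 10.9% lower and 1.54% higher without overlap. Processed pseudogenes as a class took from 4.60% to 5.63% of reads with GFP and from 4.26% to 4.65% with LCN2, ranges that overlap.

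**Figure D4:**
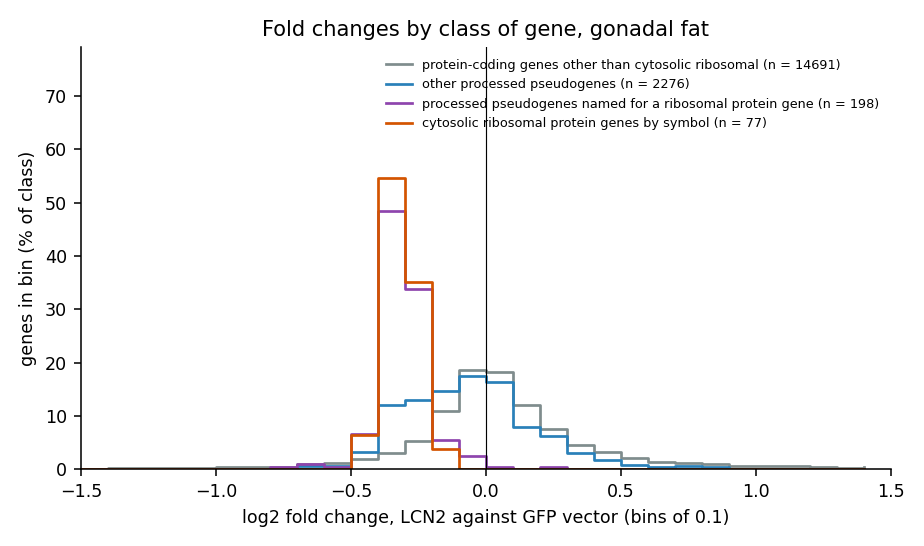
Distribution of log2 fold changes, LCN2 against GFP vector, in bins of 0.1 as a percentage of each class, for 77 cytosolic ribosomal protein genes, 198 processed pseudogenes named for them, 2276 other processed pseudogenes and 14691 other protein-coding genes. The first class lies wholly below 0, from -0.47 to -0.14, and the last is centred near its median of 0.03.

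In subcutaneous fat, deposited as separately normalized rlog values on a log2 scale, the same 77 genes were also all below 0, where 50.2% of 20302 tested genes were, with a median difference of -0.27. There 34 were lower without overlap, against 3.27% of all tested genes. Here and below, sizes of rlog differences are not like for like with the gonadal log2 fold changes. Nothing in the labels ties replicate numbers to mice across depots, so the 2 depots may share animals.

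Cell division genes had higher values with LCN2, though none passed the test over all genes. Mitotic genes are switched on together late in the cell cycle, and many of their promoters hold a cell cycle homology element (TTTGAA) and CCAAT boxes, which bind repressing and activating complexes. Of the 30 genes on the list 29 were above 0, where 52.0% of all tested genes were, with a median log2 fold change of 0.84, and 17 were higher without overlap, against 4.4% of all tested genes. Stretches of 4 promoters are shown because these genes had higher values together. They come from RefSeq (GRCm38.p6), run 5′ to 3′ on the gene's strand, and have capitals for TTTGAA and for CCAAT, in either orientation. The stretches lie at chr10:69352898-69352987 (Cdk1, minus strand), chr7:135716448-135716537 (Mki67, minus), chr5:45669835-45669924 (Ncapg, plus) and chr1:189688057-189688144 (Cenpf, minus).
Cdk1: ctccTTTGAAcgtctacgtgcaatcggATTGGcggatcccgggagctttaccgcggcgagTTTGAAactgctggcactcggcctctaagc
Mki67: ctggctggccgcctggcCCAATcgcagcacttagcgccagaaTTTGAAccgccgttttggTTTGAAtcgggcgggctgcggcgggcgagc
Ncapg: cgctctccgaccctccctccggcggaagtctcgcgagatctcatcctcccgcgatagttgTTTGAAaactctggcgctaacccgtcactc
Cenpf: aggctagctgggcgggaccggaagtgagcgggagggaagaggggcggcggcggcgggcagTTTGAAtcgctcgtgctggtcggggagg

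In windows from 250 bases before to 50 after the start, searched on both strands, TTTGAA was present in 19 of the 25 list members with a sequence (76.0%), against 18.1% of 27025 promoters. CCAAT was present in 21 (84.0%), against 37.9%. Of the DNA replication genes with a sequence, 3 of 20 (15.0%) held TTTGAA and 14 held CCAAT. The 2 motifs do not overlap in their letters. A match describes these letters and is no evidence of binding. The 3 other motifs searched were CACGTG, TTATGTAA and CACCCCAC, present in 2, 0 and 1 of the 25 cell division promoters.

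Cdk1, the mitotic kinase, had 55.9, 51.9, 58.3 and 102 normalized counts with GFP and 173, 209, 145 and 129 with LCN2, a log2 difference of 1.31 ± 0.24 (limma, adjusted p = 0.103). GFP replicate 4 stood above the other GFP samples but below every LCN2 sample. Mki67, the gene of the proliferation marker Ki-67, had 177, 129, 224 and 299 against 378, 511, 1028 and 370.1, with LCN2 replicate 3 far above the rest. Cenpf, a kinetochore gene, had 18.99, 15.3, 40.3 and 44.8 against 61.3, 81.7, 170.1 and 47.1, and Ncapg, a condensin subunit gene, 17.9, 6.10, 18.0 and 14.9 against 32.0, 29.2, 51.0 and 25.1. Both are low genes. The groups of Cenpf came close at replicate 4 of each vector, and LCN2 replicate 4 was also the lowest LCN2 sample for Ncapg. The list's median per sample, relative to each gene's mean, was -0.47, -0.62, -0.36 and -0.14 with GFP and 0.14, 0.46, 1.15 and 0.02 with LCN2. The list's summed level did overlap between groups. It was 64.3, 62.7, 63.9 and 89.5 CPM in GFP replicates 1 to 4 and 88.9, 111, 143 and 87.9 CPM in LCN2 replicates 1 to 4. Without LCN2 replicate 3 the median fold change was 0.60, and with library totals 11 in place of 17 were higher without overlap. The 24 tested DNA replication genes, which act in S phase, had a median of 0.12, with 16 above 0. Of them 1 was higher without overlap (Rrm2, the ribonucleotide reductase subunit gene, at 0.89 ± 0.25), a share near the 4.4% of all tested genes. In subcutaneous fat the cell division list had a median difference of 0.02, with 20 of 30 above 0, where 49.8% of all tested genes were. The subcutaneous values are rlog, on another scale, and whether the depots differ was not tested.

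Collagen genes were also higher with LCN2, again with no gene past the test. Of 18 tested 17 were above 0, where 52.0% of all tested genes were, with a median of 0.82, and 7 were higher without overlap, against 4.4% of all tested genes. Col6a2, a chain of the microfibrillar collagen VI around fat cells, had 16758, 8846, 18702 and 17796 with GFP and 24384, 48442, 41986 and 28152 with LCN2, a log2 difference of 1.21 ± 0.30 (limma, adjusted p = 0.158). GFP replicate 2 was lowest and LCN2 replicates 2 and 3 were highest. Col5a1, a regulator of fibril diameter, had 10222, 6150.0, 8308 and 9902 against 14043, 14659.6, 16932 and 14459.9. With library totals 4 were higher without overlap, and without GFP replicate 4 there were 13. Over all tested genes the share without overlap, both directions counted, was 6.04% and 17.9% in these settings, against 9.11% in the main one. In the wider matrix list 18 of 28 were above 0, with a median of 0.30, and Hspg2, the basement membrane proteoglycan perlecan, had a log2 fold change of 0.70 ± 0.21. In subcutaneous fat 16 of the 18 collagens were above 0, where 49.8% of all genes tested there were, with a median difference of 0.72. Only 1 collagen was higher without overlap there, a share near the 3.81% of all genes tested there.

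Vessel markers were compared with the collagens sample by sample. All 18 blood endothelial markers were above 0, where 52.0% of all tested genes were, with a median of 0.35, and 1 (Cdh5, the cadherin of endothelial junctions) was higher without overlap, at 0.58 ± 0.22 (limma, adjusted p = 0.269), a share near the 4.4% of all tested genes. The list's sum ran from 1039 to 2637 CPM with GFP and from 1989 to 2459.7 CPM with LCN2, with GFP replicate 2 lowest and GFP replicate 4 highest of all. GFP replicate 2 was also the lowest sample for collagens, at a list median of -0.88, but GFP replicate 4, at 0.04, was below every LCN2 sample for collagens. Pericyte and smooth muscle markers were 10 above and 3 below 0, and their sum overlapped, at 612 to 2882 CPM with GFP and 1243 to 1988 CPM with LCN2. The pericyte gene Rgs5, at 0.87 ± 0.23, was the 1 of these 13 without overlap, where 4.4% of all tested genes were higher without overlap. Of the 7 lymphatic endothelial markers 6 were below 0, with a median of -0.66. Fibroblast and progenitor markers were 8 above and 6 below 0, and their summed levels overlapped. The part of vessel content in the collagen values was not tested.

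**Figure D5:**
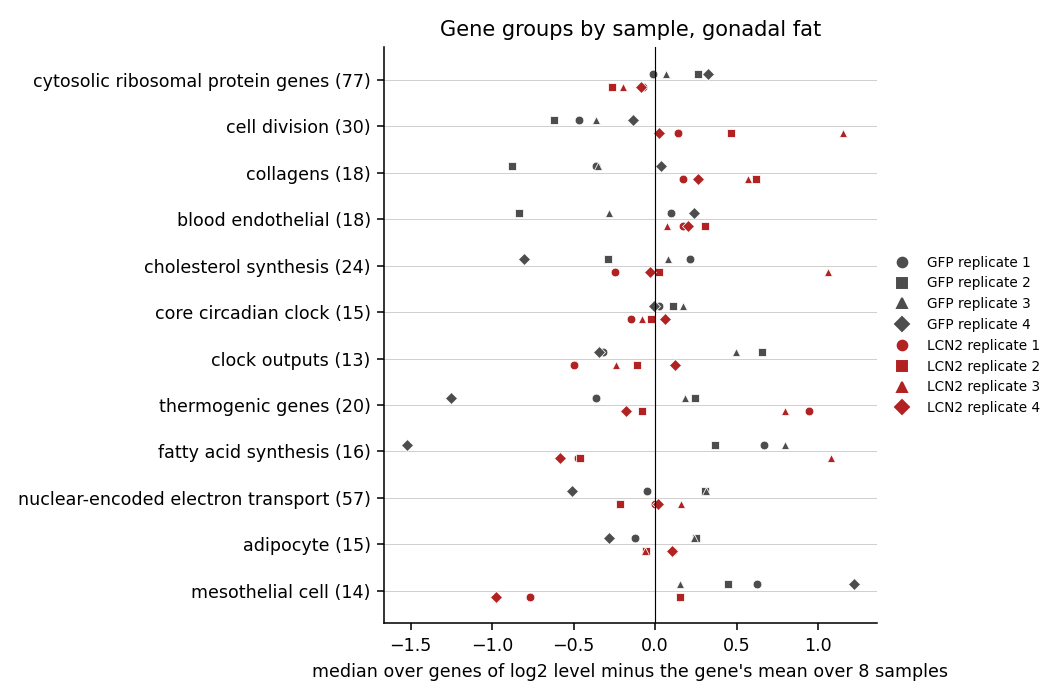
Median over the genes of each group of the log2 level minus the gene's mean over the 8 samples, with the number of genes in brackets, GFP samples in grey and LCN2 samples in red. Ribosomal protein genes, cell division genes and collagens separate the vectors without overlap, and for fatty acid synthesis GFP replicate 4 is lowest at -1.52 and LCN2 replicate 3 highest at 1.08.

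Several single genes, some of them of fat cell function, had groups that did not overlap without passing the test. Groups did not overlap for 9.11% of all tested genes, both directions counted. Lep, the gene of the satiety hormone leptin, had 32890.3, 21628, 24055 and 34236 normalized counts with GFP and 49373, 74936, 65884 and 88609 with LCN2. LCN2 replicate 1 was nearest to the GFP samples, and the log2 fold change was 1.30 ± 0.23 (limma, adjusted p = 0.0964). In subcutaneous fat the difference of Lep was 1.10 ± 0.20, also without overlap, as for 3.81% of all genes tested there in this direction. Hmgcs1, an enzyme of cholesterol synthesis, had 5775, 2764, 4718 and 8284 against 18507, 15154, 19497 and 13165, and 22 of the 24 cholesterol synthesis genes were above 0, with a median of 0.35 and list medians per sample that overlapped. Pla2g5, a secreted phospholipase A2, had 24.3, 16.3, 17.0 and 19.1 against 51.6, 209, 149.7 and 167, with LCN2 replicate 1 again nearest to GFP (adjusted p = 0.066). Lzts1, Paqr7, a membrane progestin receptor gene, and Sipa1l1 were the other genes with the smallest p among those that did not pass on the higher side, at 1.18 ± 0.17, 0.70 ± 0.10 and 0.50 ± 0.07.

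Energy and lipid lists had medians near 0 or wide spread within groups. The 57 nuclear-encoded electron transport genes had a median of -0.01 and 0 without overlap in either direction, and the 13 genes of the mitochondrial genome -0.04 and 0. The signs of these medians turned in 5 and 6 of 16 alternative settings, among them, for both, without the 2 libraries high in muscle markers. Fatty acid synthesis genes were 12 below and 4 above 0, with a median of -0.22, but samples of both groups spread widely. The fatty acid synthesis median turned sign in 3 of 16 alternative settings, among them without the 3 libraries high in hepatocyte genes. Acaca, the first enzyme of that pathway, had 84478, 64640.0, 89376 and 12111 with GFP and 19625, 14909.7, 80537 and 22564 with LCN2. It was low in GFP replicate 4 and high in LCN2 replicate 3, against the rest of each group, and the sign of its fold change turned without the libraries high in hepatocyte genes. Fads1, a fatty acid desaturase gene, was the 1 member lower without overlap, at -0.61 ± 0.18, where 4.71% of all tested genes were.

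Thermogenic genes had 15 of 20 above 0 and a median of 0.94, with wide spread. Ucp1, the uncoupling protein of brown and beige fat, had 8.44, 1081, 938 and 4.97 with GFP and 7819, 3.03, 2924 and 120.4 with LCN2, so each group held samples near 0 and samples high in it. Esrrg, a nuclear receptor of oxidative tissues, did separate the groups, with 5.28, 18.3, 21.2 and 11.6 against 64.0, 75.6, 90.7 and 81.2 (log2 fold change 2.53 ± 0.38, limma, adjusted p = 0.066). Prdm16, a beige fat regulator gene, had 0.90 ± 0.21 without overlap. In subcutaneous fat, by contrast, Esrrg had a difference of -0.37 ± 0.12 and 3 of 19 thermogenic genes were above 0, with a median of -0.37. Whether the depots differ here was not tested.

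Beside Tfr2, other genes of iron and heme handling went in both directions. Of 29 tested iron genes 15 were above and 14 below 0, and the list's median of 0.01 turned sign in 7 of 16 settings. Heph, the copper oxidase hephaestin that helps export iron, had 4481, 4786, 5094 and 3375 against 5541, 6533, 6002 and 7120.1, a log2 fold change of 0.52 ± 0.14 without overlap. In subcutaneous fat the difference of Heph was 0.54 ± 0.10, also without overlap, as for 3.81% of all genes tested there in this direction. Among heme genes Blvra, which reduces biliverdin, was higher at 0.43 ± 0.09 and Flvcr2, a transporter gene, lower at -0.94 ± 0.22, both without overlap. Heph, Blvra and Flvcr2 did not pass the test (limma, adjusted p = 0.181, 0.124 and 0.157). Without overlap, 2 iron genes were higher and 1 lower, and of 17 heme genes 1 was higher and 1 lower. These shares are near the 4.4% and 4.71% of all tested genes.

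Clock genes went in both directions, and most overlapped between groups. Of 15 core clock genes 4 were above 0 and 11 below, with a median of -0.23. Among them 1 was higher and 1 lower without overlap, where 4.4% and 4.71% of all tested genes were. Arntl, the activator of the clock, had 139, 34.6, 40.3 and 85.4 against 334, 169, 407 and 145, a log2 difference of 1.90 ± 0.49 (limma, adjusted p = 0.174) with groups that met at GFP replicate 1 and LCN2 replicate 4. Of 13 clock output genes 10 were below 0, with a median of -0.48, among them Dbp at -1.06 ± 0.34, while Noct rose. Noct was the 1 output gene higher without overlap, and 0 were lower without overlap. The hour at which tissue was taken is not in the labels.

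Inflammatory and complement genes were mixed. Of 25 tested cytokine and chemokine genes 18 were above 0 and 3 were higher without overlap (52.0% and 4.4% of all tested genes), among them Ccl2, which attracts monocytes, at 1.50 ± 0.37. Macrophage markers were 6 above and 8 below 0, with 0 without overlap. The interferon list had a median of 0.10 and 0 without overlap. That median turned sign in 3 of 16 alternative settings, among them without the 3 libraries high in hepatocyte genes. The complement gene C2 was lower without overlap, at -0.92 ± 0.21. Of 26 tested Wnt genes 11 were above and 15 below 0, with a median of -0.05. Without overlap 3 were higher and 3 lower, Wnt2b among the lower, where 4.4% and 4.71% of all tested genes were. On the higher side, Axin2, a target of the pathway, had 669, 693, 539.8 and 726 against 1177, 799, 1212 and 985, and Wnt5a, a ligand, had 0.36 ± 0.08, both higher without overlap.

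Of the 20 called genes 16 were also tested in subcutaneous fat, where 13 had the same sign, as did 64.5% of the 19109 genes tested in both depots. All 8 genes that rose were above 0 there, 2 of them without overlap (Car12 and D430019H16Rik), against 49.8% and 3.81% of all genes tested there. Of the 8 tested among those that fell 5 were below 0, and Stk26 was the 1 lower without overlap. The shares of all genes tested there were 50.2% and 3.27%. Tmem255a, with the smallest p in gonadal fat, had a subcutaneous difference of 0.19 ± 0.12.

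The count of 20 depended on scaling, test and samples. With library totals it was 6 (4 higher, 2 lower). DESeq2 on the recovered whole reads gave 776 (437 higher, 339 lower), among them all 20. The 20 kept their sign in each of the 21 other fits, of which the one at a mean of at least 50 tested 18 of them. Since their groups do not overlap, leaving out samples or changing the filter or pseudocount could not turn a sign. The kept signs are therefore no measure of stability. Leaving out 1 library gave 2, 1, 1 and 66 genes for GFP replicates 1 to 4 and 27, 15, 1 and 3 for LCN2 replicates 1 to 4. Without LCN2 replicate 4 and GFP replicate 2 limma called 0, with 1689 genes at an unadjusted p under 0.05. These 2 were highest by the median of the muscle markers though not by their sum. Without the 3 libraries high in hepatocyte genes it also called 0, with 1622. Only 3 against 3 samples, and 3 GFP against 2 LCN2 samples, remain in these subsets. Why the calls were lost was not tested.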

How the data were processed

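Gonadal fat of 4 LCN2 and 4 GFP samples had been profiled by RNA sequencing, with libraries from a stranded mRNA kit and RNA of integrity above 8.2, per the labels' protocols. The submitters' processing notes name HISAT2, DESeq2, GRCm38 and mm10. What counted the reads, and with which strand setting, is not given in the sources used here. The gonadal values the authors deposited are a signal per gene, read counts divided by a size factor per sample, and 100% came out as whole reads within 1e-06 once divided by what 1 read is worth. The subcutaneous values the authors deposited are rlog values on a log2 scale, of unknown depth, normalized separately. Of 30325 gonadal genes 99.2% matched a symbol. Genes with a mean of at least 10 were tested with limma 3.58.1 (R 4.3.3, intensity trend) on log2(value + 1), which understates changes of low genes, at a Benjamini-Hochberg adjusted p of 0.05. Differences are LCN2 minus GFP. Subcutaneous genes needed a mean rlog of 3. A level of 3 reads equals 0.0699 to 0.0853 CPM, for counting error only.

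The 41 functional and 21 marker lists, the members and the naming rule were chosen with earlier results of these data known. The rule took Lcn2, every called gene whose groups do not overlap, further genes to 12 per direction by smallest p with a mean of at least 50 (on the lower side the 12 called genes), up to 3 members per list by smallest p, and genes of at least 100 in a single library and 8 times higher there. Npm1, Ncapg, Cenpf, Mki67, Ucp1, Msln, Adipoq, Rps21 and Rplp0 fall outside it and were chosen after their values were seen. Reads were also tested with edgeR 4.0.16 and DESeq2 1.42.0, and the limma step was tested on simulated data. No 2 samples agreed within sampling noise, with a mean chi-square per gene of at least 42.0. Same-numbered GFP and LCN2 samples deviated with correlations of 0.25, -0.36, 0.42 and 0.02, so the numbers were not taken to pair samples.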

Additional observations from a re-analysis of the deposited data

Results flagged for a closer look

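For 70 named genes and 21 marker lists, 182 groups of 4 gonadal samples were looked at for a sample far from the other 3, and 15 had one by Dixon's 95% criterion (a gap above 0.829 of the range), which chance flags in about 1 of 20 groups. LCN2 replicate 2 was far above the other LCN2 samples for Stk26 (172 normalized counts), Wnt2b (517) and mesothelin (Msln, 1312), and for the summed pericyte and smooth muscle markers (1988 CPM). GFP replicate 4 was far above the other GFP samples for Cdk1 (102), Msln (1851) and Lzts1 (225), and 2010300C02Rik had 257 there, the sample farthest from its group. The neutrophil gene S100a8 stood at 26.5 in GFP replicate 3. LCN2 replicate 1 was the distant sample for Mtss1l (2882), Flvcr2 (139.5) and the lipid-associated macrophage markers (8729 CPM), LCN2 replicate 3 for Acaca (80537), GFP replicate 2 for T and NK cell markers (13.6 CPM) and LCN2 replicate 4 for skeletal muscle markers (2501 CPM).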

How the results depend on the processing

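Against 20 genes called by limma, library totals gave 6, TMM scaling 13, a mean of at least 50 gave 11, limma without its intensity trend 6, with sample quality weights 71, edgeR on recovered reads 7, DESeq2 on them 776, and an adjusted p of 0.10 gave 75. Pseudocounts of 0.5 and 5 gave 20 and 21, and no filter gave 22. Leaving out 1 library gave 1 to 66 calls. Limma called 0 genes without LCN2 replicate 4 and GFP replicate 2 (1689 at an unadjusted p under 0.05) and 0 without GFP replicate 1 and LCN2 replicates 1 and 2 (1622). Those subsets also hold fewer samples, and edgeR and DESeq2 were not run on them. With the replicate number as a block limma also called 0 genes (2636 unadjusted), and since the numbers do not pair the samples (correlations of 0.25, -0.36, 0.42 and 0.02) no weaker effect is read from it. For these changes the cause was not tested.

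The share of genes without overlap, 9.11%, was 6.04% with library totals, 14.8% without the 2 libraries highest by the median of muscle markers and 26.4% without the 3 highest in hepatocyte genes, and 10.9% to 17.9% without 1 library, where fewer samples make overlap rarer by construction. The Lcn2 difference was 1.68 to 2.17 without 1 library, each with an exact p of 0.0571, the smallest that 4 against 3 allows. The difference of Acaca turned to 0.049 without the hepatocyte-high libraries and that of Slc22a17 to -0.010 without the muscle-high ones. Over 70 named genes 971 alternatives kept direction and side of the threshold, 200 lost the call, 12 gained it and 2 changed sign. Only the 20 called genes, with up to 17 alternatives each, could lose the call, so all 200 losses fell on them. The 971 also counts named genes that never passed, and is therefore no measure of how stable the calls were. Of 62 list medians 31 changed sign in some alternative. Scaling moved the median of all genes by at most 0.01.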

Other observations

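Further genes from the lists had groups that did not overlap without passing the test over all genes (limma), and each is given as a value. The share of all tested genes without overlap was 9.11%, both directions counted. Hif1a, the oxygen-sensing subunit of a hypoxia-inducible factor, had 2462, 2691, 2859 and 2833 normalized counts in GFP replicates 1 to 4 and 3447, 3412, 4104 and 3619 in LCN2 replicates 1 to 4. Igf1, an insulin-like growth factor, had 6219.6, 8361, 9315 and 9208 against 10382, 11274, 12908 and 12299. GFP replicate 1 was the lowest sample for both genes. Gper1, a membrane receptor for oestrogen, had a log2 fold change of 0.98 ± 0.20 (SE), Palld, an actin-binding protein gene, 1.12 ± 0.17 and Zfp423, a regulator of preadipocyte identity, 0.67 ± 0.13. Gdf10, a growth factor of the TGF-beta family, was on the lower side, with 1275, 1093, 958 and 1123 against 616, 601, 553 and 760.3.

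The acute-phase gene Saa3 and the neutrophil gene S100a8 were spread within the LCN2 group. Saa3, a serum amyloid made by fat cells and macrophages, had 120.3, 63.1, 78.5 and 261 with GFP and 223, 1114, 466 and 796 with LCN2. S100a8, a calgranulin abundant in neutrophils, had 9.50, 7.12, 26.5 and 9.12 against 17.8, 164, 69.2 and 54.2. In both genes the groups overlapped through LCN2 replicate 1. Only 2 neutrophil markers were tested, and the one other than S100a8 had a log2 fold change of -0.01. Of 19 antigen presentation genes 18 were above 0, with a median log2 fold change of 0.24 and 1 higher without overlap, where 4.4% of all tested genes were.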
